A study of Mus musculus with 72 samples.

Results

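Gabra2, Gabra3, Gabrb1, Gabrb2, Gabrg3, Gabre and Gabrq encode 7 subunits of the GABA-A receptor, and they were chosen by name for a description of subunit combinations in serotonin neurons of the mouse dorsal raphe. Each was held by both deposited tables, as 7 of 17231 genes in 2350 droplet (10X) cells and 7 of 24256 genes in 70 hand-sorted cells. Of 12 other subunit genes that were listed beside them, 9 were in the 10X table.

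The GABA-A receptor is a chloride channel gated by GABA, the main inhibitory transmitter of the adult brain, and it is built from 5 subunits around a central pore. The usual receptor combines alpha and beta subunits, whose interface binds GABA, with a gamma subunit, whose interface with alpha binds benzodiazepines and which helps to place the receptor at synapses. The epsilon subunit (Gabre) and the theta subunit (Gabrq) are rarer members with high expression in monoaminergic and hypothalamic nuclei, and receptors that hold epsilon are known for low sensitivity to benzodiazepines and for spontaneous opening. Among alpha subunits, alpha 2 (Gabra2) and alpha 3 (Gabra3) give receptors with different kinetics and distribution, and alpha 3 is known as a subunit of brainstem monoamine neurons. Serotonin neurons of the dorsal raphe receive strong GABA input, and the transcription factor Pet1 (gene Fev) marks their lineage.

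The cells were Pet1-lineage neurons sorted by fluorescence from adult mouse dorsal raphe (DR). In the 10X experiment, run 1 came from Pet1::Flpe+/-; hM3Dq+/+ mice at a mean of postnatal day 65.5 and run 2, of mean postnatal day 59, from mice with En1::cre+/- and Pet1::Flpe+/- that also carried RC::FrePe+/-, a reporter that gives EGFP only after both recombinases. Run 1 used no Cre, so that its reporter gave EGFP and not the hM3Dq receptor, and run 2 took in only cells with a history of En1-driven Cre. Barcodes fell into set 1 (869 cells) and set 2 (1481 cells), and no barcode was in both. Which set is which run is not given in the sources used here, so genotype, run and set cannot be told apart, and the 10X cells are described as 1 pooled sample. The hand-sorted cells all carried Pet1::Flpe+/- and RC::FrePe+/-, with a Cre driver that named their group. With Sert::cre+/- there were 10 cells of the dorsolateral DR (Sert dlDR) and 8 of the ventromedial DR (Sert vmDR), both from postnatal days 63 and 90, 9 of the dorsomedial DR (Sert dmDR) from the same days, and 6 of the caudal DR (Sert cDR) from day 63. With P2ry1::cre+/- there were 10 cells of the caudal DR (P2ry1 cDR, days 62 to 74). With Npy2r::cre+/- there were 10 cells of the caudal DR (Npy2r cDR) and 9 of the rostral DR (Npy2r rDR), both from days 77 and 87, and with Crh::cre+/- there were 8 cells of the rostral DR (Crh rDR, days 83 and 119). Sert-cre and Crh-cre are transgenes, Npy2r-cre and P2ry1-cre are knock-ins, and each label records any past activity of the driver. The labels name no animal, so each group was treated as 1 sample and no test across samples was made, although cells of different ages in a group must come from different animals. Ratios below are given with counting error or with the values of the cells.

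Depth was 12320 to 134079 UMIs (unique molecular identifiers, counted molecules) per 10X cell with a median of 59646, and 756872 to 7664103 reads per sorted cell with a median of 4113037 reads. Fev had a UMI in every 10X cell and Tph2 in 99.5%, and the 5 serotonin genes checked had reads in 70 of 70 sorted cells. Defining markers of other cells were near 0 over the 10X cells, at 0.605 CPM (counts per 1000000 counts of the cells or group) for Slc32a1 of GABA neurons and 0.516 CPM for the summed astrocyte list, whereas Mbp of oligodendrocytes had a UMI in 62.6% of cells. As a guide to free RNA, Met, a gene that marks cluster 12 below, had a UMI in 97.2% of that cluster and in 1.47% of all other cells (0.548% after thinning each cell to 20000 UMIs). The median cell of that cluster had 45568 UMIs.

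The 7 genes lie on 4 chromosomes of GRCm38 (mm10). Gabra2 (chr5:70958392-71095849, minus strand) and Gabrb1 (chr5:71657921-72149572, plus strand) share a stretch of chromosome 5, where the start of Gabrb1 overlaps the start of Gabra4 on the other strand by 388 bases. Gabrg3 (chr7:56716463-57387215, minus) and Gabrb2 (chr11:42419515-42632591, plus) stand elsewhere. Gabre (chrX:72256926-72274828, minus), Gabra3 (chrX:72432676-72656919, minus) and Gabrq (chrX:72825163-72842607, plus) lie next to each other within 586 kb of the X chromosome. The start regions are shown for Gabra2, Gabrg3, Gabre and Gabrq, the members whose level differed most clearly among cell clusters or groups. They are RefSeq sequence of GRCm38.p6 on the strand of the gene, 5′ to 3′, and stop at the gene's listed bound. Capitals mark matches, on either strand, to GGGCGG (the GC box of SP-family factors, CCGCCC on the other strand) or GATAAG (the GATA core). The 3 capitals at the end of Gabrq begin a match that runs on past the gene's bound.
Gabre, chrX:72274829-72274971, minus strand: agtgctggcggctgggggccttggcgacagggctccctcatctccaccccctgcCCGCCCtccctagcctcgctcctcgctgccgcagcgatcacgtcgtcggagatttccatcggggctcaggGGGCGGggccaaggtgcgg
Gabrq, chrX:72824928-72825162, plus strand: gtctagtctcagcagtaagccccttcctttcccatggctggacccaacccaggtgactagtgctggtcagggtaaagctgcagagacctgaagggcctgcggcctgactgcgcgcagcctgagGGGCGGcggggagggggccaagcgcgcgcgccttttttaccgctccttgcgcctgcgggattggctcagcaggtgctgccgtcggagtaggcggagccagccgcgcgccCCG
Gabrg3, chr7:57387216-57387465, minus strand: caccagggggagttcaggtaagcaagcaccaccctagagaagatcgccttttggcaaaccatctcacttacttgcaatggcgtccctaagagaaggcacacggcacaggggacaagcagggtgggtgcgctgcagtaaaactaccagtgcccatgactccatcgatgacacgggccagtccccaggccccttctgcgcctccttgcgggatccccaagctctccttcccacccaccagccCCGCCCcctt
Gabra2, chr5:71095850-71096099, minus strand: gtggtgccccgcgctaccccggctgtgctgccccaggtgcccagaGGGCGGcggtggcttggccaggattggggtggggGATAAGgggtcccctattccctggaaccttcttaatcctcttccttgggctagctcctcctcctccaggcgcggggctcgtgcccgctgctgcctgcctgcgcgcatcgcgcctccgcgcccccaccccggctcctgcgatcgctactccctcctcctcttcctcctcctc

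All 7 members had an entry in the RefSeq promoter table, and motifs were counted in the 250 bases before the start that the table gives, which for Gabre, Gabrq and Gabrb2 lies inside the listed gene, on both strands and with overlaps allowed. GGGCGG occurred 3 times for Gabre, 2 times for Gabrq and 1 time each for Gabra2, Gabrg3 and Gabrb2, and 32.7% of the 32851 promoters held it. GATAAG was in the window of Gabra2 (6.55% of promoters), and TATAAA, the TATA box, in those of Gabra3 and Gabrb2 (12.4%). CGGAAG, the ETS core searched because Pet1 is an ETS factor, was in none of the 7 windows (13.6% of promoters), nor was the E-box CACGTG (6.02%). The GC content of the window was 42.4% for Gabra3 with 0 CpG, against 70.0% for Gabra2, 68.8% for Gabre with 21 CpG and 67.2% for Gabrq with 19, beside a median of 52.4% over the promoters. These counts describe letters in 1 window per gene.

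The beta 1 subunit, Gabrb1, was found in nearly every cell. In the 10X cells it had 44805 UMIs, 331 CPM (95% exact Poisson interval 328 to 334, which like the other intervals here covers counting error only), and 99.8% of cells held at least 1. Clusters were built from the 10X cells by the study's settings and gave 14 groups, numbered here by marker genes. Over them Gabrb1 ran from 262 CPM in cluster 9 (Maf, Nos1, Crh) to 405 CPM in cluster 3 (Kit, Hcrtr1, Phlda1), a ratio of 1.54 (1.47 to 1.61). The intervals of neighbouring clusters in that order overlapped in all 13 of 13 pairs, so that its order is a gradient without a step. In the sorted cells Gabrb1 had reads in 70 of 70 cells, from 45.3 to 879 CPM with a median of 234.

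The beta 2 subunit, Gabrb2, was sparse. It had 454 UMIs in the 10X cells (3.35 CPM, 3.05 to 3.67), at least 1 UMI in 16.0% of cells, and no cell with 5 UMIs in any cluster. Its level was 11.3 CPM (8.41 to 14.9) in cluster 13 (Nfib, Nppc, Bmp3), 7.53 CPM (5.21 to 10.5) in cluster 1 (Npas1) and 0.770 CPM (0.332 to 1.52) in cluster 5 (Pdyn, Ret, Col25a1). Cluster 13 stood above all other cells by 1.88 on the log2 scale (1.43 to 2.31) and cluster 1 by 1.23 (0.68 to 1.74), while the ratio of cluster 13 to cluster 1 was 1.51 with an interval that included 1 (0.955 to 2.40). The median cell had 28628 UMIs in the former and 45664 in the latter, both below the median of all cells. Thinned to equal depth, 17.9% of cluster 13 and 13.7% of cluster 1 held a Gabrb2 UMI, against 6.62% of all cells. Cluster 13 also had the lowest summed level of the 5 serotonin genes, 2381 CPM against up to 10328 in another cluster, and the highest of the oligodendrocyte list, 66.0 CPM against 31.0 over all cells, and of the astrocyte list, 1.59 CPM. Slc32a1 was at 5.67 CPM there. The part of these in any level of cluster 13 given here, for members or other genes, was not tested.

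The alpha 2 subunit, Gabra2, showed a step among the clusters. Over all 10X cells it had 7295 UMIs, 53.8 CPM (52.6 to 55.1), in 88.9% of cells. Cluster 12 (Met, Zeb2) had 177 CPM (165 to 189) with a UMI in 109 of 109 cells, cluster 14 (Gpr101, Ecel1, Cxcl14) 117 CPM (106 to 129) and cluster 13 from 90.9 to 109.8 CPM, 0.94 above all other cells on the log2 scale. The other 11 clusters lay between 32.6 CPM (cluster 4; Sox14, Vim, Prkcq) and 65.3 CPM (cluster 7; Tmeff2, Adcy2, Nrp2). Cluster 12 stood above cluster 14 by 1.51-fold (1.34 to 1.70) and above cluster 2 (Crym, Trh) by 3.40-fold (3.12 to 3.71). These 3 high clusters also had the 3 lowest median depths. The median cell had 28628 UMIs in cluster 13, 34715 in cluster 14 and 45568 in cluster 12, before cluster 1 at 45664. After thinning to equal depth, the share of cells with Gabra2 was 95.3% in cluster 12, 85.3% in cluster 14, 78.4% in cluster 13 and 42.4% to 64.8% in the other clusters, so the order of the 3 was the same at equal depth. It depends on the clustering, as the group matched to cluster 14 held 218 cells with components 1 to 50 and 221 at resolution 0.7 in place of 100, and its Gabra2 was then 0.65 and 0.67 above all other cells on the log2 scale in place of 1.17, less than the 0.94 given above for cluster 13.

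The alpha 3 subunit, Gabra3, varied less. It had 2815 UMIs (20.8 CPM, 20.0 to 21.5) in 64.9% of 10X cells. Clusters 13 (36.7 CPM, 31.3 to 42.8) and 1 (34.1 CPM, 28.9 to 39.9) were not apart (ratio 1.08, 0.859 to 1.35). Both lay above the next cluster, cluster 10 (Hs3st5, Hcrtr2, Cbln2) at 23.8 CPM. Below these, levels declined without a step to 14.0 CPM in cluster 2 and 13.7 CPM (10.6 to 17.3) in cluster 12. Cluster 12 thus had the highest level of Gabra2 and, over both barcode sets, the lowest point estimate of Gabra3, which in set 2 alone was that of cluster 2. Of the UMIs of both alpha subunits together, Gabra2 gave 92.8% (91.0 to 94.4, exact binomial interval) in cluster 12 and 83.4% in cluster 14. The share was 61.3% in clusters 1 and 3, the lowest over both sets pooled, and 72.2% in all cells. These clusters were lowest in neither set alone. Gabra2 was lowest relative to Gabra3 in cluster 11 in set 1 (40.4 and 35.2 CPM) and in cluster 4 in set 2 (26.3 and 20.7 CPM).

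**Figure D1:**
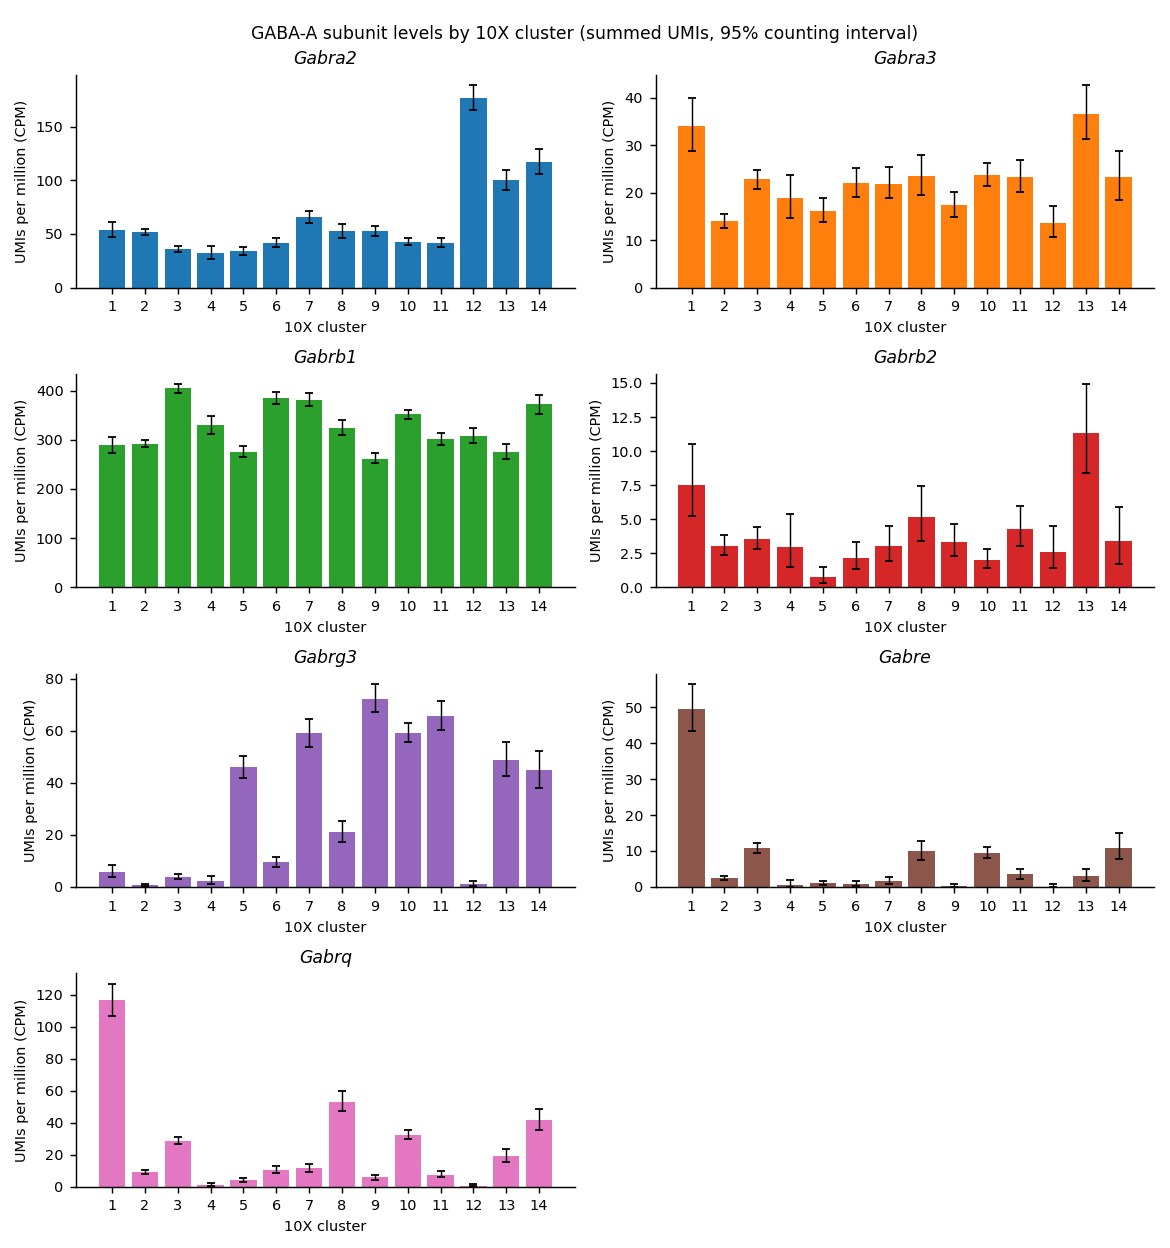
Level of each subunit in the 14 clusters of 10X cells, as CPM of the summed UMIs (linear axes that differ among panels); bars give the cluster and lines the 95% exact Poisson counting interval. Gabrb1 is near level, between 262 and 405 CPM, Gabra2 is highest in cluster 12 at 177 CPM, Gabrg3 is near 0 in clusters 2 and 12, and Gabre and Gabrq are both highest in cluster 1, at 49.6 and 117 CPM.

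The gamma 3 subunit, Gabrg3, divided the clusters into a high and a low set. Overall it had 3896 UMIs (28.7 CPM, 27.8 to 29.7) in 45.8% of cells. It was high in clusters 9 (72.4 CPM, 67.2 to 78.0), 11 (Rspo3, Foxa1, Adgrl2; 65.6), 10 (59.3), 7 (59.1), 13 (48.7), 5 (46.0) and 14 (44.8 CPM, 38.2 to 52.3). It was low in clusters 1 (5.76 CPM), 3 (3.93), 4 (2.17), 12 (1.01) and 2 (0.600 CPM, 0.336 to 0.990), with cluster 8 (Rorb, Nr2f2, Wnt4) at 21.1 and cluster 6 (Pou3f2, Bcl11a, Gad1) at 9.50 CPM between. In the 446 cells of cluster 2 there were 15 UMIs in all. The 2.47% of cluster 2 cells with a UMI (0.686% thinned) lie close to the share that Met had outside its own cluster, and were not read as expression. Cluster 9 and cluster 11 were not apart (1.10-fold, 0.986 to 1.24).

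The epsilon and theta subunits, Gabre and Gabrq, shared their highest cluster. Gabre had 841 UMIs (6.20 CPM, 5.79 to 6.64) in 19.8% of cells, and Gabrq 2778 UMIs (20.5 CPM, 19.7 to 21.3) in 35.6%. In cluster 1, marked by the transcription factor gene Npas1, Gabre was at 49.6 CPM (43.3 to 56.5) with a UMI in 83.0% of cells, and Gabrq at 117 CPM (107 to 127) with a UMI in 92.0%. Against all other cells that cluster was higher by 3.40 on the log2 scale for Gabre (3.17 to 3.62) and by 2.76 for Gabrq (2.62 to 2.90). Clusters 14, 3, 8 and 10 came next for Gabre, at 10.9, 10.8, 9.92 and 9.42 CPM in that order, and these 4 were not apart by their intervals. For Gabrq cluster 8 came next at 53.1 CPM, then clusters 14, 10, 3 and 13 at 41.5, 32.5, 28.7 and 19.0 CPM. Cluster 1 lay above cluster 14 by 4.54-fold for Gabre (3.22 to 6.55) and above cluster 8 by 2.20-fold for Gabrq (1.90 to 2.55).

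At the other end, cluster 12 had no Gabre UMI in 109 cells, which by a limit of 3 counts allows up to 0.604 CPM and a share of up to 2.75% of cells with a UMI, while the 95% exact intervals reach 0.742 CPM and 3.33%. Gabrq had 2 UMIs in cluster 12 (0.403 CPM, 0.0487 to 1.45) and 3 UMIs in the 60 cells of cluster 4 (0.815 CPM). Cluster 9, with the highest Gabrg3, had 3 Gabre UMIs (0.310 CPM) and 5.68 CPM of Gabrq. Cluster 12 therefore had Gabrb1 and Gabra2 in quantity and little or none of Gabrg3, Gabre and Gabrq.

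The 2-fold counts put these values against all genes. In cluster 1, 4 of 7 members lay past 2-fold from all other cells (Gabrb2, Gabre and Gabrq higher, Gabrg3 lower), where 8.43% of the 12901 genes with 100 UMIs or more did. In cluster 9 there were 3 of 7 (Gabrg3 higher, Gabre and Gabrq lower), beside 6.76% of genes. In cluster 12 there were 4 of 7 (Gabra2 higher, Gabrg3, Gabre and Gabrq lower), beside 15.3%, and in cluster 13 there were 2 of 7 (Gabrb2 higher, Gabre lower), beside 14.6%. In any cluster it was 5 of 7, all but Gabra3 and Gabrb1, beside 32.4% of genes. Gabra2, Gabrb1, Gabrg3, Gabre and Gabrq were among the 2000 genes that built the clusters, so their part in these differences is a description. When the subunit genes were taken out and cells clustered anew, clusters 1, 9, 12 and 13 kept 100 of 100, 157 of 159, 109 of 109 and 144 of 144 cells. For cluster 7 the marker genes picked a group that held none of its 122 cells. That group had 101 cells, as many as the one picked for cluster 14, so what cluster 7 kept was not measured.

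The barcode sets differed in the level of Gabra2, Gabra3 and Gabrb1, and for 6 of 7 members the same cluster was highest in both. Gabra2 was at 74.4 CPM in set 1 and 42.6 CPM in set 2, a difference of -0.80 on the log2 scale (-0.87 to -0.74), and set 2 was the higher in 1 of 14 clusters. Gabra3 was at 25.1 and 18.4 CPM (log2 -0.45) with set 2 higher in 3 of 14 clusters, and Gabrb1 the other way at 275 and 361 CPM with set 2 higher in 14 of 14. Gabrb2, Gabrg3, Gabre and Gabrq differed less, for instance 27.9 and 29.2 CPM for Gabrg3. None of 7 members passed 2-fold between the sets, where 1.44% of genes did. Over the 14 clusters Pearson's r of the levels in set 1 and set 2 was 0.98 for Gabrg3, 0.97 for Gabrq, 0.96 for Gabre, 0.93 for Gabra2, 0.80 for Gabrb1, 0.77 for Gabrb2 and 0.63 for Gabra3, as a description of points that share the clustering. Cluster 1 was highest for Gabre and Gabrq, cluster 12 for Gabra2, cluster 9 for Gabrg3, cluster 13 for Gabrb2 and cluster 3 for Gabrb1 in both sets; for Gabra3 the highest was cluster 1 in set 1 and cluster 13 in set 2. The lowest cluster was the same in both sets for Gabrb2 (cluster 5). For Gabre and Gabrq clusters 4 and 12 were tied at 0 CPM in set 1. In set 2 cluster 12 was the lowest for both, at 0 CPM of Gabre and 0.642 CPM of Gabrq. For Gabra2, Gabra3, Gabrb1 and Gabrg3 the lowest cluster differed between the sets.

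**Figure D2:**
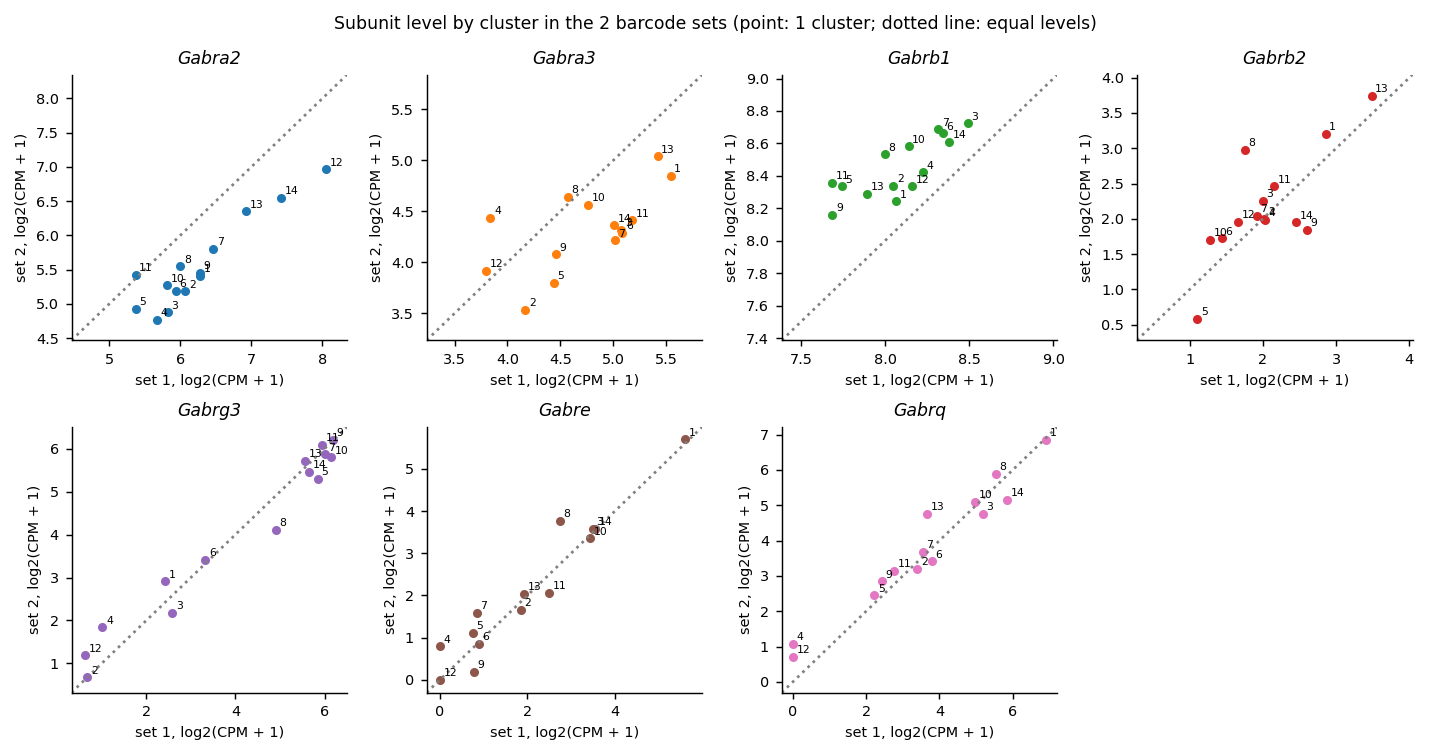
Level of each subunit in barcode set 1 (x axis) and set 2 (y axis), log2(CPM + 1), with 1 numbered point per cluster and a dotted line where both sets are equal. Gabra2 points lie below the line in 13 clusters and Gabrb1 points above it in 14, while the points of Gabrg3, Gabre and Gabrq follow the line.

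Subunits were then read cell by cell. Of 128 possible patterns of presence and absence (1 UMI or more) of the 7 members, 62 were seen, and the 5 most frequent held 50.8% of cells. The leading pattern was Gabra2, Gabra3, Gabrb1 and Gabrg3 in 315 cells (13.4%). Next came Gabra2, Gabra3 and Gabrb1 in 305 cells (13.0%), Gabra2 with Gabrb1 in 257 (10.9%), Gabra2, Gabrb1 and Gabrg3 in 164 (6.98%), and the leading pattern with Gabrq added in 152 (6.47%). The median cell held 4 members, 25 cells held all 7 and 1 cell held none. A pattern covers the 7 members alone, so that a cell with none of Gabrg3, Gabre and Gabrq may hold other subunits.

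Patterns went with clusters. Gabra2 with Gabrb1 and nothing else was found in 57 of 109 cells of cluster 12 (52.3%), the highest share of 1 pattern in any cluster. Gabra2, Gabra3, Gabrb1, Gabre and Gabrq led in cluster 1 (29 of 100 cells) and in cluster 3 (41 of 320 cells, 12.8%). Gabra2, Gabra3, Gabrb1 and Gabrg3 led in clusters 5, 7, 9, 10, 11 and 13, with 20.1% to 34.0% of their cells. The same 4 genes with Gabrq led in clusters 8 (17.4%) and 14 (16.0%), and the triple without Gabrg3 led in clusters 2, 4 and 6 (27.1%, 38.3% and 26.6%). The mean number of members per cell was highest in clusters 1, 8 and 10, at 4.72, 4.69 and 4.65, and lowest in cluster 12, at 2.59. In cells thinned to 20000 UMIs that order differed, with the highest means in clusters 1, 14 and 13, at 3.71, 3.39 and 3.36, and the lowest in clusters 4, 2 and 6, at 1.88, 2.07 and 2.20, before cluster 12 at 2.25.

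Detection depends on depth, and these shares move with it. In the 2297 cells thinned to 20000 UMIs the leading pattern of all cells was Gabra2 with Gabrb1 in 474 cells (20.6%), the 4-gene pattern was in 4.22% of cells, 63 patterns were seen and no cell held all 7. Both alpha subunits were seen together in 58.2% of cells as deposited and in 20.9% after thinning. The leading pattern was the same after thinning in 3 of 14 clusters, Gabra2 with Gabrb1 alone in 66.0% of cluster 12, the 5-gene pattern with Gabre and Gabrq in 14.7% of cluster 1 and the 4-gene pattern with Gabrg3 in 15.7% of cluster 13. In the other 11 clusters it held fewer genes. Gabra2 with Gabrb1 then led also in clusters 2, 3, 8 and 14 (14.3% to 40.7% of cells), Gabrb1 alone in clusters 4, 5 and 6 (18.3% to 33.9%), Gabra2, Gabrb1 and Gabrg3 in clusters 7, 9 and 11 (18.0% to 26.0%), and Gabrb1 with Gabrg3 in cluster 10 (15.3%).

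Sorting cells by whether they held Gabrg3, and whether they held Gabre or Gabrq, shows how the clusters differ. Over all cells 26.8% had Gabrg3 without Gabre or Gabrq, 22.8% had Gabre or Gabrq without Gabrg3, 19.0% had both kinds and 31.4% had none of the 3. In cluster 1 these shares were 0%, 77.0%, 19.0% and 4.00%, and in cluster 9 they were 73.0%, 2.52%, 20.1% and 4.40%. In cluster 10 most cells held both kinds (56.1%), in cluster 8 it was 50.0%, and in clusters 12, 4 and 2 most had none of the 3 (94.5%, 85.0% and 69.1%). After thinning, both kinds were seen in 28.4% of cluster 14 (42.0% as deposited), 22.9% of cluster 10 and 15.5% of cluster 8, and none of the 3 in 98.1% of cluster 12. By UMIs, Gabrg3 gave 3.35% (2.20 to 4.86) of the summed Gabrg3, Gabre and Gabrq in cluster 1, 58.6% in cluster 10 and 92.4% (90.2 to 94.1) in cluster 9.

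**Figure D3:**
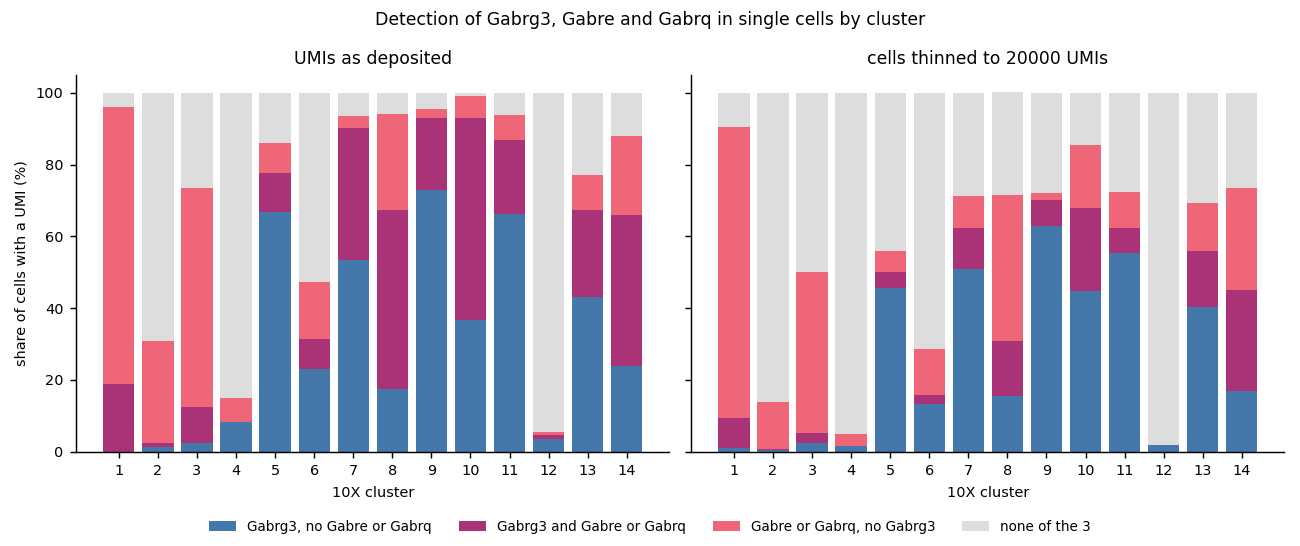
Share of cells (%) in each cluster with Gabrg3 only, with Gabrg3 and Gabre or Gabrq, with Gabre or Gabrq only, or with none of the 3, by at least 1 UMI, as deposited (left) and in cells thinned to 20000 UMIs (right). Cluster 1 is mostly Gabre or Gabrq without Gabrg3 (77.0%), cluster 9 mostly Gabrg3 alone (73.0%), and cluster 12 mostly none of the 3 (94.5%).

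Gabre and Gabrq were in the same cells more often than their separate frequencies give. Both were found in 320 cells, 1.93 times (1.72 to 2.15) the number expected from their shares over all cells, and 1.23 times (1.10 to 1.38) the number expected when the shares are taken within each cluster. In thinned cells the ratios were 2.40 (2.00 to 2.85) and 1.27 (1.06 to 1.52). The within-cluster value was 1.17 (0.96 to 1.42) in barcode set 1 and 1.27 (1.10 to 1.45) in set 2. Of cells with Gabre, 68.7% had Gabrq, and of cells with Gabrq, 38.2% had Gabre. By cluster, Gabrq was found in 95.2% of the 83 Gabre cells of cluster 1 and in 76.5% of its cells without Gabre, in 81.9% and 42.3% in cluster 10, and in 64.7% and 49.5% in cluster 3. The shares were close in cluster 7 (36.4% of 11 Gabre cells and 34.2%), and in clusters 9 and 4, with 3 and 1 Gabre cells, none of these held Gabrq, against 21.2% and 5.08% of the cells without Gabre. Pearson's r of both was 0.91 over the 14 clusters and 0.49 over the 2350 cells, both as descriptions, since the cells of a cluster share its level and all come from the same libraries.

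Over all thinned cells the other 20 of 21 pairs lay closer to the number expected, between 0.73 and 1.68 times it. In these cells Gabrb2 with Gabre was at 1.68 over all cells (1.09 to 2.48) and 1.32 within clusters (0.85 to 1.95), and Gabra3 with Gabre at 1.40 (1.14 to 1.69) and 1.18 (0.97 to 1.43). Gabrg3 with Gabre was at 0.73 (0.55 to 0.97) over all cells and 0.86 (0.64 to 1.13) within clusters. Within clusters the interval of the thinned ratio included 1 for each of these 20 pairs. With 2 UMIs as the minimum in unthinned cells it lay above 1 for Gabra3 with Gabre, at 1.28 (1.04 to 1.55), and for Gabra3 with Gabrq, at 1.20 (1.05 to 1.36). For Gabra2 with Gabra3 its lower bound was then 1.00 (1.09, 1.00 to 1.18). Among 323 cells with 5 or more Gabrg3 UMIs, 14.2% (10.6 to 18.5) held Gabre, against 19.8% of all cells, and among 221 cells with 5 or more Gabrq UMIs, 64.3% (57.6 to 70.6) did. The 3 genes that neighbour each other on the X chromosome, Gabre, Gabra3 and Gabrq, were found together in 251 cells (10.7%), of which 64 were among the 100 cells of cluster 1, 70 in cluster 3 and 60 in cluster 10. After thinning these were 69 cells (3.00%), with 25 in cluster 1, 14 in cluster 10 and 11 in cluster 3.

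**Figure D4:**
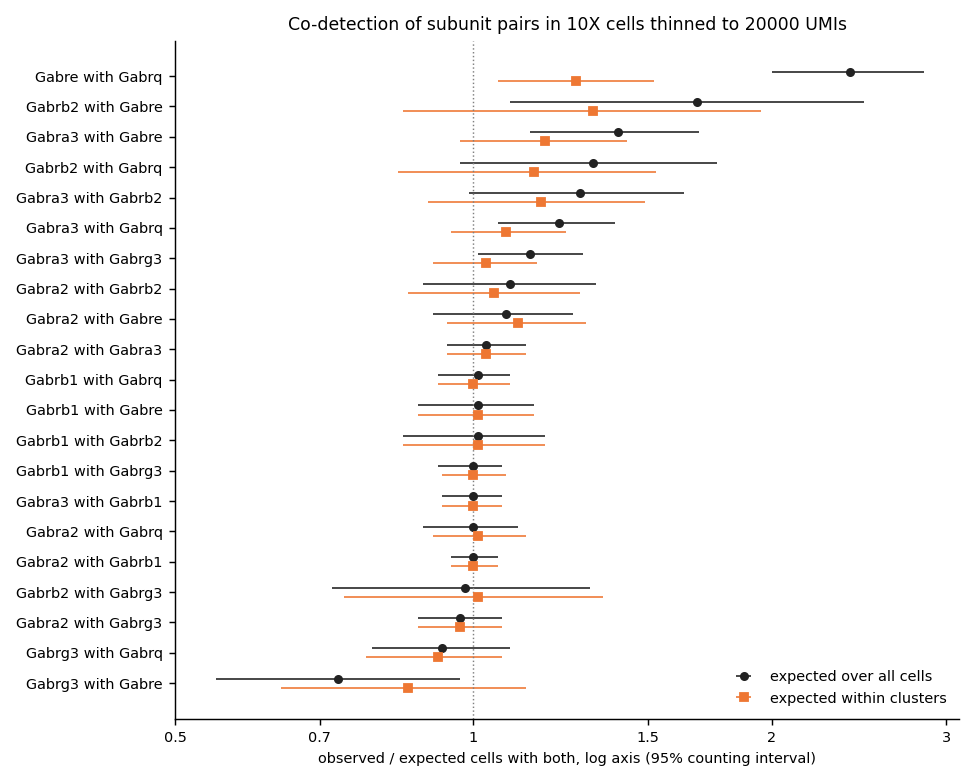
Observed over expected number of cells with both genes for the 21 member pairs in cells thinned to 20000 UMIs (log axis), with expectation over all cells (circles) or summed within clusters (squares) and 95% counting intervals. Gabre with Gabrq stands highest over all cells, at 2.40. Within clusters it is at 1.27, below Gabrb2 with Gabre at 1.32, whose interval is wide (0.85 to 1.95).

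The hand-sorted cells were read over their full transcripts, so that genes can be compared per kilobase of exon. On that scale the mean level over 70 cells was 19.5 CPM per kb for Gabrb1, 6.44 for Gabra2, 5.47 for Gabra3, 1.84 for Gabrq, 1.83 for Gabrg3, 0.416 for Gabrb2 and 0.308 for Gabre. Reads were found in 70 of 70 cells for Gabrb1, 66 for Gabra2, 51 for Gabra3, 35 for Gabrg3, 23 for Gabrb2, 22 for Gabrq and 15 for Gabre. The values that follow are CPM without length, compared within a gene. Neighbouring groups in the order of mean level had overlapping ranges for each of the 7 members.

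P2ry1 cDR neurons, the caudal group of the purinergic receptor driver P2ry1-cre, had the highest Gabra2. Their 10 cells ran from 28.9 to 364 CPM with a median of 115, and the mean was 137 CPM against 26.0 CPM in Sert cDR (0 to 52.5), a log2 ratio of 2.39. In 9 of 10 cells Gabra2 was above the highest Sert cDR cell, while the lowest lay inside the Sert cDR range. The Npy2r cDR cells were between, with 1.96 to 183 CPM and a median of 79.8. Gabrb1 ran from 175 to 551 CPM in P2ry1 cDR and from 135 to 387 in Sert cDR, and these ranges overlap broadly.

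Gabra3, Gabrb2, Gabrg3, Gabre and Gabrq had reads in few or no P2ry1 cDR neurons. Gabrg3 had reads in 1 of 10 cells (0.156 CPM, 1 read), against 6 of 6 Sert cDR cells at 18.4, 16.7, 70.4, 24.3, 23.0 and 5.03 CPM, so the groups did not overlap. Gabre had reads in 0 of 10 cells, which allows up to 0.0537 CPM over the group, and in 1 of 6 Sert cDR cells. Gabrq had 1 read in 1 P2ry1 cDR cell, and 242 reads (55.3 CPM) in 1 Sert cDR cell. Gabra3 had reads in 2 of 10 P2ry1 cDR cells, at 0.328 and 27.3 CPM, and in 5 of 6 Sert cDR cells. In 7 of 10 P2ry1 cDR cells Gabra2 and Gabrb1 were the only members with reads, a pattern seen in 1 other cell of the 70. Replicate 9 differed most, with Gabra3 at 27.3 and Gabrb2 at 40.2 CPM beside Gabra2 at 177. Met had reads in 9 of 10 P2ry1 cDR cells and in 2 of the 60 others, and the cluster with Met among the 10X cells had the same leading pair. Against Sert cDR, 5 of 7 members lay past 2-fold in mean CPM (Gabra2 higher, Gabra3, Gabrg3, Gabre and Gabrq lower), where 44.3% of genes did. For Gabra3 the log2 ratio was -1.82, and it became -8.06 without P2ry1 cDR replicate 9 and -0.42, under 2-fold, without Sert cDR replicate 2. Sert cDR replicate 6 held all Gabre and Gabrq reads of its group, so without it neither gene gives a ratio. Of the 5 members, 2 (Gabra2 and Gabrg3) stayed past 2-fold whichever cell was left out. P2ry1 cDR cells had more reads (median 5737032, against 3586506 in Sert cDR) and fewer genes with reads (6809 to 8930, against 9078 to 10444), and the part of this in these counts was not tested.

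**Figure D5:**
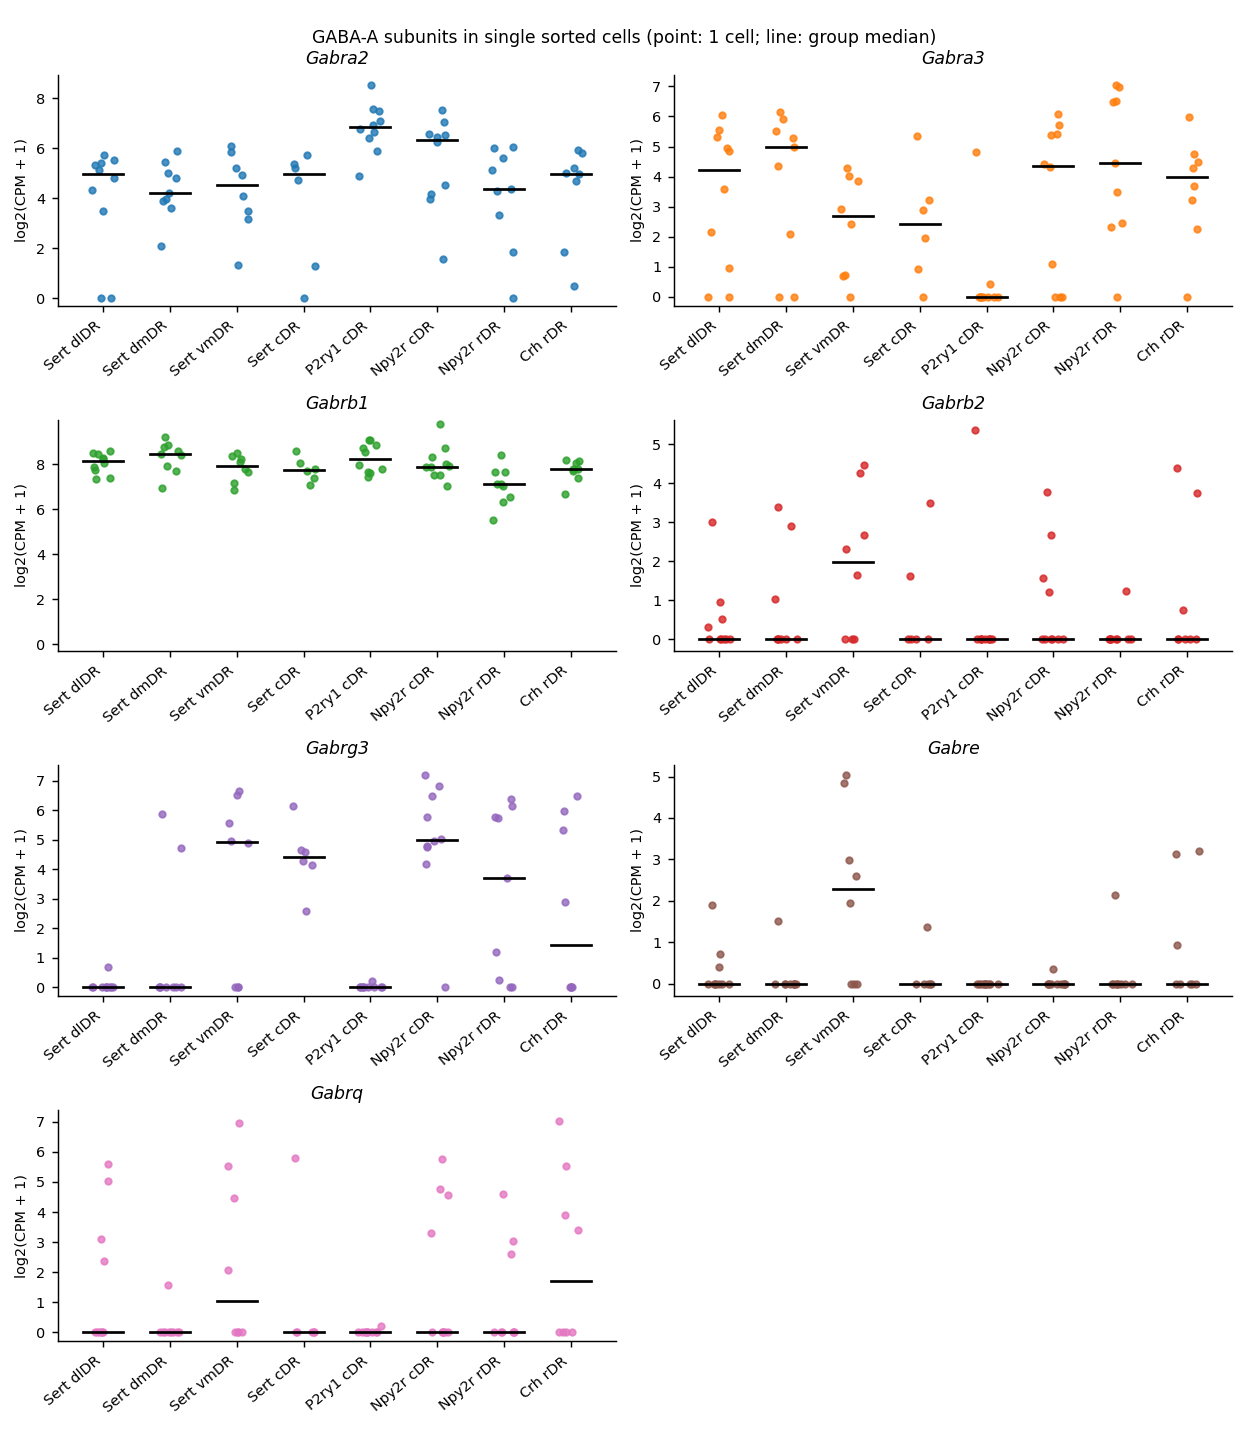
Level of each subunit in single hand-sorted cells by group, log2(CPM + 1); each point is 1 cell and the line is the group median. Gabra2 is highest in P2ry1 cDR, where Gabrg3, Gabre and Gabrq are at or near 0, and Gabre is above 1 CPM in 5 of 8 Sert vmDR cells.

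Gabrg3 differed among the regional groups of the serotonin transporter driver Sert-cre. It had reads in 6 of 6 caudal cells (mean 26.3 CPM) and 5 of 8 ventromedial cells (46.1, 30.2, 91.4, 99.8 and 28.5 CPM, and 3 cells at 0). In the dorsomedial DR it had reads in 2 of 9 cells (57.8 and 25.3 CPM) and in the dorsolateral DR in 1 of 10 (0.616 CPM). All 5 positive ventromedial cells stood above the highest dorsolateral cell. In the Npy2r-cre groups 9 of 10 caudal cells (17.3 to 144 CPM, and 1 at 0) and 7 of 9 rostral cells (up to 83.3 CPM) had reads, with means of 52.9 and 30.2 CPM.

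Gabre and Gabrq were most often found in the ventromedial and Crh groups. Gabre had reads in 5 of 8 Sert vmDR cells, at 31.7, 27.9, 6.86, 5.04 and 2.88 CPM, in 3 of 8 Crh rDR cells, at 8.21, 7.76 and 0.907 CPM, and in 7 cells of all the other groups. Its highest Sert dlDR cell was at 2.72 CPM, below each of the 5 positive Sert vmDR cells. The log2 ratio of these groups was 4.66, and it was 6.45 without Sert dlDR replicate 5 and 4.05 without Sert vmDR replicate 4. Gabrq had reads in 4 of 8 Sert vmDR cells (125, 45.5, 21.3 and 3.24 CPM) and 4 of 8 Crh rDR cells (131, 45.3, 13.9 and 9.66 CPM). It also had reads in 4 of 10 Sert dlDR cells (4.23 to 47.1 CPM) and 4 of 10 Npy2r cDR cells (8.94 to 53.1 CPM), and in 1 of 9 Sert dmDR cells. The mean in Crh rDR, 24.9 CPM against 3.94 in Npy2r rDR, rests on few cells: the log2 ratio of 2.66 became 1.32 without Crh rDR replicate 2 and 4.03 without Npy2r rDR replicate 7. Both Gabre and Gabrq had reads in 10 of 70 cells, of which 4 were Sert vmDR, and Pearson's r of their means over the 8 groups was 0.63.

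Gabra3 and the beta subunits varied in other directions. Gabra3 was highest on average in Npy2r rDR, with 8 of 9 cells from 3.96 to 131 CPM and 1 at 0, a mean of 52.7 against 24.0 CPM in Npy2r cDR (0 to 66.1; log2 ratio 1.13). The medians of these groups were close, at 20.8 and 19.5 CPM (log2 ratio 0.09), and the highest median was that of Sert dmDR, at 31.0 CPM. It was lower in Sert vmDR (mean 7.40 CPM, 0 to 18.6) than in Sert dlDR (22.4, 0 to 65.9) and Sert dmDR (29.6, 0 to 70.2). Gabrb1 was lowest in Npy2r rDR, at 45.3 to 339.6 CPM with a mean of 153, against 129 to 879 with a mean of 309 in Npy2r cDR. Gabrb2 had reads in 5 of 8 Sert vmDR cells (2.15 to 21.0 CPM) and in 1 of 9 Npy2r rDR cells (1.34 CPM). In mean CPM, 6 of 7 members lay past 2-fold between Npy2r rDR and Npy2r cDR (all but Gabrg3), where 32.3% of genes did, but only Gabra2 and Gabrb2, 2 of the 6, stayed past it whichever cell was left out. The log2 ratio of Gabra3 came down to 0.84 without Npy2r rDR replicate 7, that of Gabrb1 from -1.02 to -0.69 without Npy2r cDR replicate 7 and that of Gabrq from -1.49 to -0.70 without Npy2r cDR replicate 6, and Gabre rests on 1 rostral cell (replicate 1, 3.40 CPM). For Crh rDR against Npy2r rDR it was 4 of 7, where 30.3% of genes did, and for Sert vmDR against Sert dlDR 5 of 7, where 34.8% did. All 4 of the former stayed past 2-fold whichever cell was left out, and of the latter Gabrq did not (0.14 without Sert vmDR replicate 4). In the former, Gabrb2 rests on 2 Npy2r rDR reads, whose counting error alone gives a log2 ratio of 2.94 to 7.84. Gabre rests there on 1 Npy2r rDR cell. All Crh rDR cells with reads of Gabrb2, Gabre or Gabrq were of day 119, and those of day 83 had none. Between any group and the other groups 6 of 7 members lay past 2-fold, beside 63.4% of genes.

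Age differed among some groups. Within cells of postnatal day 63, Gabre was at 9.90 CPM in Sert vmDR and 0.127 in Sert dlDR, and within day 90 at 8.69 and 0.608 CPM. Gabrg3 in the same groups was at 19.1 and 0.123 CPM on day 63 and at 54.9 and 0 CPM on day 90. For Gabra3 in Npy2r rDR and Npy2r cDR the means were 44.6 and 26.3 CPM on day 77 and 56.7 and 22.5 CPM on day 87, so the direction was the same at both ages for these pairs. Npy2r rDR and Crh rDR share no age, and neither P2ry1 cDR nor Sert cDR shares one with Npy2r cDR. In these pairs age and group cannot be told apart. P2ry1 cDR had 1 cell of day 63, at 99.4 CPM of Gabra2 against a mean of 26.0 in the 6 Sert cDR cells of that day.

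As combinations, the sorted cells showed 25 patterns, led by Gabra2, Gabra3, Gabrb1 and Gabrg3 in 10 cells. With a minimum of 10 reads Gabra2 with Gabrb1 led instead, in 13 cells against 6, and with a minimum of 1 CPM in 12 against 7. Both alpha subunits had reads in 49 of 70 cells, Gabra2 alone in 17, Gabra3 alone in 2 and neither in 2. Gabrg3 without Gabre or Gabrq was found in 21 cells, Gabre or Gabrq without Gabrg3 in 13, both kinds in 14 and none of the 3 in 22. By group, none of the 3 was found in 9 of 10 P2ry1 cDR, 5 of 9 Sert dmDR and 4 of 10 Sert dlDR cells, Gabrg3 alone in 5 of 6 Sert cDR cells, and both kinds in 4 of 8 Sert vmDR and 4 of 10 Npy2r cDR cells. All 7 members had reads in 3 cells, 2 of Sert vmDR and 1 of Sert cDR. The mean number of members per cell was 5.25 in Sert vmDR and 3.56 to 4.62 in the other groups except P2ry1 cDR, where 7 of 10 cells held 2.

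Among other subunits, Gabra4 (alpha 4, an alpha subunit of extrasynaptic receptors) was at 29.0 CPM in 73.1% of 10X cells and highest in cluster 14 (57.4 CPM), log2 1.02 (0.81 to 1.23) above all other cells. Reads of Gabra4 and Gabrb1 at their overlapping starts could be split between them. Gabrg1 (gamma 1) was at 12.9 CPM in 45.9% of cells, with 24.2 CPM in cluster 7 and 5.71 CPM in cluster 4. Gabra5 (alpha 5) was at 4.04 CPM and reached 25.6 CPM in cluster 13. It also had reads in 5 of 10 P2ry1 cDR cells, at a mean of 30.4 CPM of which 1 cell gave 55.0%. Of the 6 other subunit genes with 100 UMIs or more, 4 lay past 2-fold in some cluster, beside 32.4% of all genes.

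Genes of receptor placement, chloride balance and GABA handling were counted from fixed lists, where 9 of 29 lay past 2-fold in some cluster, 7 higher and 6 lower with 4 counted both ways, beside 32.4% of all genes. Of 21 genes of receptor scaffold, assembly and trafficking there were 4. Gphn, the gephyrin scaffold of inhibitory synapses, was at 80.1 CPM in cluster 11 and 81.2 in cluster 13 against 26.4 in cluster 2. Iqsec3, a gephyrin partner, was at 111 CPM in cluster 12, log2 1.05 (0.92 to 1.17) above all other cells, and Slitrk3, an adhesion protein of inhibitory synapses, at 25.4 CPM there (log2 1.46, 1.19 to 1.73). Dmd, the dystrophin gene, was lower in cluster 11 at 17.3 CPM (log2 -1.33). Of 4 chloride transport genes there were 2, Slc12a5 (KCC2, the neuronal chloride exporter), at 523 CPM in cluster 13 against 249 in all other cells, and Slc12a7, a potassium chloride cotransporter, at 8.95 CPM in cluster 11. Gabbr2, a subunit of the GABA-B receptor, reached 150.1 CPM in cluster 13 (log2 2.23, 2.11 to 2.35), and Slc6a11, a GABA transporter, was at 1.33 CPM in cluster 1 against 9.37 in all other cells.

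The genes outside the family whose level over the 14 clusters was most like that of each member were taken from 9117 genes, by Pearson's r of log2(CPM + 1), and looked up in the 8 sorted groups. For Gabrg3 these were Pcdh15 (0.95, and 0.92 in the sorted groups), Cers6 (0.90 and 0.85) and Mical2 (0.89 and 0.65). For Gabra2 they were Lsm3 (0.95 and 0.78), Polr2j (0.95 and 0.61) and Metap1d (0.94 and 0.79), and for Gabrq Sema5a (0.90 and 0.89), Dcaf7 (0.86 and 0.49) and Cdh18 (0.82 and -0.22). For Gabre they were Slc25a39 (0.84 and -0.47), Dcaf7 (0.82 and 0.64) and Khnyn (0.79 and -0.58), and for Gabrb2 Brd9 (0.84 and 0.72), Rfx5 (0.83 and 0.67) and Pnrc1 (0.80 and 0.51). For Gabra3 they were Cdh18 (0.86 and -0.57), Pom121 (0.84 and -0.39) and Atp5b (0.82 and -0.03), and for Gabrb1 Tgoln1 (0.87 and -0.03) and Hsd17b4 (0.76 and 0.51). The genes most like Gabrg3, Gabra2 and Gabrb2 had a positive r in the sorted groups throughout, while those most like Gabra3 did not. Each r is the highest of many over few points that share libraries and is a description.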

How the data were processed

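RNA was measured in 10X droplet cells and in hand-sorted single cells of Pet1-lineage neurons. The authors deposited whole-number counts in both tables, UMI counts per gene and cell from Cell Ranger 3.0.2 for the 10X cells (mm10, cells with at least 4500 genes, genes in at least 10 cells) and read counts without molecular identifiers for the sorted cells. For the sorted cells both alignment to mm10 and counting per gene used STAR 2.5.4, and the authors removed no sorted cell. The strand setting of that counting is not given in the sources used here. The 10X filters were applied in R 3.5.3. Every column of both tables was used. The sorted table names the Crh cells Crf, and they were matched to the samples by the rest of the name.

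Counts were summed per cluster or cell and divided by the total (CPM). Clustering followed the study's methods in Seurat 5.3.0 under R 4.3.3 (2000 variable genes, principal components 1 to 5 and 8 to 50, 20 neighbours, resolution 0.9). Intervals are 95% exact Poisson or binomial and, as PCR copies and cells are not replicates, cover counting error only. Scrublet, in scanpy 1.11.5, called 14 doublets, which were kept. For equal depth 2297 cells were thinned to 20000 UMIs and 53 shallower ones left out. A floor is 3 counts. Sums and intervals were computed in Python (3.11.15) using scipy 1.17.1, pandas 2.3.3 and numpy 2.4.6, by scripts that were tested on simulated data. Alternatives included edgeR 4.0.16 and DESeq2 1.42.0 size factors for the sorted cells, other clusterings, thinning, detection minimums, each barcode set alone and leaving out each cell. Named genes are the 7 members, other subunits with 1000 UMIs, listed accessory genes past 2-fold in a cluster, and the 3 genes most like each member; Gabra5 was added after its values were seen. Members and lists were chosen with earlier results of these data known. Some genes that the rule or lists hold are counted but not reported here.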

Additional observations from a re-analysis of the deposited data

Results flagged for a closer look

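Within each sorted group the highest and lowest cell was compared with its nearest neighbour for each member, by Dixon's 95% limit, in 55 sets of gene and group. For normal values chance flags about 1 in 20 sets, and the rate for values with many zeros, as here, was not measured. There were 15, and in 11 of them all other cells of the group were at 0, so that any cell with reads stood out.

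In P2ry1 cDR, replicate 9 stood apart for Gabra3 (27.3 CPM, next 0.328) and Gabrb2 (40.2 CPM, others at 0), and replicate 5 for Gabrg3 and Gabrq (0.156 CPM each, 1 read). In Sert cDR, replicate 6 stood apart for Gabrq (55.3 CPM) and Gabre (1.60 CPM), with the others at 0. In Sert dlDR they were Gabrb2 in replicate 8 (6.99 CPM, next 0.951), Gabrg3 in replicate 10 (0.616 CPM) and Gabre in replicate 5 (2.72 CPM, next 0.634). In Sert dmDR they were Gabre in replicate 7 (1.83 CPM) and Gabrq in replicate 2 (1.99 CPM). In Npy2r rDR they were Gabrb2 in replicate 6 (1.34 CPM) and Gabre in replicate 1 (3.40 CPM). In Npy2r cDR, Gabre in replicate 5 was at 0.280 CPM with the others at 0, and replicate 10 was the only cell at 0 CPM of Gabrg3, where the next had 17.3 CPM.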

How the results depend on the processing

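Of 121 alternatives to 27 main values, 91 stayed within the spread, 30 moved and 0 reversed. Of 130 alternatives to 21 further values, 112 stayed, 18 moved and 0 reversed. The spread was the counting interval, for ratios of sorted groups the larger standard deviation of log2(CPM + 1) among cells, and for counts of sorted cells or genes a fixed fold. A reversal could be called only for log2 ratios of 2-fold or more, so for all other values none was possible. The cause of a move was not tested unless the alternative itself shows it. Gabra2 in cluster 12 against all other cells was at 2.37 on the log2 scale with components 1 to 50, where 42 of the 109 cells made a cluster of their own, and at 1.98 in barcode set 1 and 1.65 in set 2. Over all 10X cells, set 1 and set 2 gave 74.4 and 42.6 CPM for Gabra2, 25.1 and 18.4 for Gabra3 and 275 and 361 for Gabrb1, and set 1 gave 5.61 for Gabre. Thinning gave 58.5 CPM for Gabra2, 324 for Gabrb1 and 23.1 for Gabrq. The mean of cell CPM was 59.7 for Gabra2, 21.7 for Gabra3 and for Gabrq, and 3.91 for Gabrb2. Both alpha subunits were in 20.9% of cells after thinning, 24.3% at 2 UMIs, 65.7% in set 1 and 53.8% in set 2, and the leading pattern was in 4.22% after thinning and 7.23% at 2 UMIs, since both ask for more molecules per cell or leave fewer. Gabre with Gabrq stood at 2.40 (thinned) and 3.28 (2 UMIs) over all cells and 1.44 (2 UMIs) within clusters. With 1000 UMIs as the minimum, 3 of 5 members lay past 2-fold in some cluster, beside 17.0% of genes. The difference of mean log2(CPM + 1) between Sert vmDR and Sert dlDR was 3.50 for Gabrg3 and 1.88 for Gabre, against log2 ratios of 9.23 and 4.66, of which the former rests on 2 Sert dlDR reads in 1 cell, whose counting error alone gives 7.38 to 12.28. With 10 reads as the minimum, 5 sorted cells held both Gabre and Gabrq. Leaving out each cell in turn gave 2.10 to 2.72 for Gabra2 in P2ry1 cDR against Sert cDR, 0.84 to 1.44 for Gabra3 in Npy2r rDR against Npy2r cDR (0.09 as a ratio of medians), 8.83 to 9.42 for Gabrg3 (without Sert dlDR replicate 10, the only dorsolateral cell with reads, at least 8.66, by 3 reads over the group) and 4.05 to 6.45 for Gabre in Sert vmDR against Sert dlDR (6.45 without Sert dlDR replicate 5, 4.05 without Sert vmDR replicate 4), and 1.32 to 4.03 for Gabrq in Crh rDR against Npy2r rDR. Gabra3 in P2ry1 cDR against Sert cDR went from -1.82 to -8.06 without P2ry1 cDR replicate 9 and to -0.42 without Sert cDR replicate 2. Gabrg3 in Npy2r cDR against Sert cDR went from 1.01 to 1.60 without Sert cDR replicate 3 and to 0.70, under 2-fold, without Npy2r cDR replicate 1. Depth limits the sparse members most: Gabrb2 rests on 454 and Gabre on 841 UMIs. No paired analysis was possible because the replicate numbers only count cells and the labels name no animal; groups were set side by side within the ages they share, with no test.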
